A study of Mus musculus with 5 samples.

Results

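G protein-coupled receptors that T cells use to read lipids, protons and a few other small or secreted cues were followed in CD4+ T cells of the inflamed colon. The members were Gpr183, Gpr18, Gpr15, Gpr65, Gpr132, Gpr171, Gpr174, P2ry10, Ptger2 and Ptger4. The 10 genes were chosen by name, with earlier results of these data known. They are read by 14 of the 45101 probe sets on the array, each of which carries the single symbol of its gene. Every one of the 10 genes had a probe set, 4 of them had more than 1, and they stand among 18193 genes tested. The data came from 5 Affymetrix Mouse430_2 arrays, with 2 arrays of CXCR6 Hi cells, 2 of CXCR6 Lo cells and 1 of CD45Rb Hi naive cells. The CXCR6 Hi and CXCR6 Lo cells were CD3+CD4+ T cells sorted from the colonic lamina propria (LP) of Rag1-/- mice, which have no T or B cells of their own, after transfer of CD45Rb Hi cells had given them colitis, on a BALB/c background and at 6 weeks after transfer. By the methods the naive cells were splenic, from BALB/c mice, whereas the labels name both spleen and LP, and mice were used at 8 to 12 weeks of age. The labels call the arrays of a subset biological replicates, but how many mice gave each sample is not given in the sources used here, so that p-values measure only the spread between arrays.

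These receptors sit in the T cell membrane and pass a signal to heterotrimeric G proteins when a ligand binds. The prostaglandin E2 receptors EP2 and EP4 and the proton sensor Gpr65 raise cyclic AMP, which restrains T cell activation, whereas oxysterol receptors act mainly on cell migration and place lymphocytes within lymphoid tissue and the gut. Receptors for lysophosphatidylserine, a phospholipid that has lost an acyl chain, restrain T cell responses or guide movement. Not every member senses a lipid or a proton: Gpr15 is a homing receptor of the colon with a peptide ligand, and a peptide has been proposed as the ligand of Gpr171.

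Where these genes lie and how their promoters are built differ among the members. Gpr18 and Gpr183 are neighbours on chromosome 14, Ptger2 lies elsewhere on chromosome 14, and P2ry10 and Gpr174 lie close together on the X chromosome. The 250 bases before the transcription start are shown for both prostaglandin receptors and for the Gpr18 and Gpr183 pair, since 3 of these genes were among those that differed most between LP and naive T cells and Ptger4 did not pass. The sequences come from RefSeq (build GRCm38.p6), run 5′ to 3′ on the strand of the gene, and capitals mark matches on either strand to TGTGGT, the core letters of RUNX sites, or to CACCC, the core letters of KLF sites. In this order they are chr14:44987861-44988110 (plus strand), chr15:5244188-5244437 (minus strand), chr14:121915889-121916138 (minus strand) and chr14:121965194-121965443 (minus strand).
Ptger2: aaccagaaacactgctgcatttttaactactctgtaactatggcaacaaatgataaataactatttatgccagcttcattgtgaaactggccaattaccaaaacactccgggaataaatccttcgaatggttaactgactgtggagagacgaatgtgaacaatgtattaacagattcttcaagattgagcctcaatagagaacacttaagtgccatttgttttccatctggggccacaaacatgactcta
Ptger4: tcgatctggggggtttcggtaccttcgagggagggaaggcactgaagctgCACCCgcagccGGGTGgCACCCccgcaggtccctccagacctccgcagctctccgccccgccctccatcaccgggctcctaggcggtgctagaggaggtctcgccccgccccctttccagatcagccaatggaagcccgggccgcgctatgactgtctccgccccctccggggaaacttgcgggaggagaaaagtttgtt
Gpr18: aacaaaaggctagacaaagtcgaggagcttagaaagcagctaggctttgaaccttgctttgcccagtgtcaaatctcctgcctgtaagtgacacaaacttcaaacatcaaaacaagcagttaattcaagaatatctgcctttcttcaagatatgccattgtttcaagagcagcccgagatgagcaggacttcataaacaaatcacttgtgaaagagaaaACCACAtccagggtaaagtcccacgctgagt
Gpr183: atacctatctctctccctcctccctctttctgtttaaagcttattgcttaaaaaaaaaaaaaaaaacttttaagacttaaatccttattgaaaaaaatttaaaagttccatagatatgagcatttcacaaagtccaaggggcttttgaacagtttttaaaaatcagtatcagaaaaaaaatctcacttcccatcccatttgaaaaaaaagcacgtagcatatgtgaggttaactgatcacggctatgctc

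The Ptger4 promoter had the highest GC content and the most CpG dinucleotides among the members' promoters. It had a GC content of 66.8% and 19 CpG dinucleotides, whereas the promoters of Ptger2, Gpr18 and Gpr183 had a GC content of 38.0%, 42.4% and 32.0% and held 3, 3 and 2 CpG dinucleotides. The Gpr132 promoter, not shown, came next to Ptger4, at 55.6% GC and 6 CpG dinucleotides. Over all 32851 promoters of the same length, the median was 52.4% GC and 6 CpG dinucleotides, with an upper quartile of 16. The table held 10 promoters of 9 members, P2ry10 having more than 1 start, and none for Gpr171. TGTGGT was present in 4 of the 10 (Gpr132, Gpr15, Gpr18 and 1 start of P2ry10), against 14% of all promoters, and CACCC in 4 (Gpr132, Gpr15, Gpr174 and Ptger4), against 52%. The cyclic AMP response element TGACGTCA was in 0 of the 10 and in 1.55% of all promoters, and the AP-1 site TGAGTCA, the E-box CACGTG and the orphan receptor site AAAGGTCA were also in 0, against 4.46%, 6.02% and 1.34%. A match is a description of these letters in this window.

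To learn how colitic LP T cells differ from naive T cells in these receptors, the mean of both LP subsets was compared with the naive array. Of the 10 genes, 7 were higher in LP T cells at an adjusted p under 0.05 (limma): Gpr18, P2ry10, Gpr174, Ptger2, Gpr183, Gpr171 and Gpr65, by 2.49-fold to 6.85-fold. Over all 18193 genes 15.1% passed as higher, and 0 of the 10 genes passed as lower, against 18.8% of all genes. The median log2 difference was 1.92 over the 10 genes and -0.136 over all genes. Since the choice of genes was not blind to these data, such figures describe the genes and do not test them as a set. All values are linear signals on a scale where the median probe set of each array is 1, and differences are on the log2 scale.

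**Figure D1:**
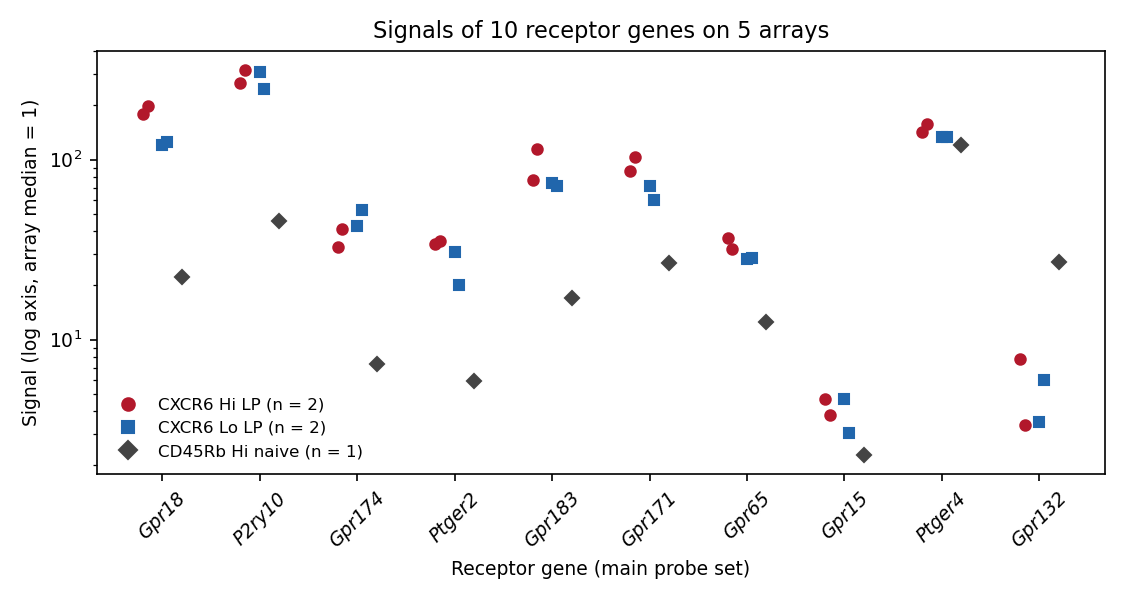
Signal of each receptor gene (main probe set, log axis, array median of 1) on the 2 CXCR6 Hi LP arrays, the 2 CXCR6 Lo LP arrays and the naive array, with genes ordered by the difference between LP and naive. Each point is 1 array, and the naive array is the lowest for 9 of the 10 genes and the highest for Gpr132.

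Both receptors for lysophosphatidylserine in the set were higher in LP T cells. P2ry10, which despite its name binds this lipid rather than a nucleotide and acts on T cell movement, had signals of 268 and 315 on the CXCR6 Hi arrays, 308 and 248 on the CXCR6 Lo arrays and 45.6 on the naive array. The subsets overlapped, and each LP array lay far above the naive array, with a log2 difference of 2.64 (SE 0.28, adjusted p = 0.0148, 6.21-fold). Gpr174, which raises cyclic AMP and restrains T cells, had signals of 32.8 and 41.3 on the CXCR6 Hi arrays, 42.6 and 52.4 on the CXCR6 Lo arrays and 7.34 on the naive array. The log2 difference of Gpr174 was 2.51 (SE 0.30, adjusted p = 0.0160, 5.68-fold), and here the CXCR6 Lo arrays were the higher ones.

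The value for Gpr174 depended on the probe set. Its main probe set is of the type whose probes may also match other transcripts. The second probe set read 12.3 and 23.0 on the CXCR6 Hi arrays, 18.4 and 20.4 on the CXCR6 Lo arrays and 7.79 on the naive array. It too was higher on all 4 LP arrays, but the log2 difference of 1.21 (SE 0.46) missed the threshold (adjusted p = 0.133, limma over all probe sets).

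Gpr18, a receptor known from the accumulation of intraepithelial lymphocytes in the gut and for which lipid ligands have been proposed, had the largest difference of the 10 genes. Its signals were 180 and 199 on the CXCR6 Hi arrays, 121 and 125 on the CXCR6 Lo arrays and 22.3 on the naive array. All 4 LP arrays lay well above the naive array, and the CXCR6 Hi pair lay above the CXCR6 Lo pair. The log2 difference between LP and naive was 2.78 (SE 0.24, adjusted p = 0.0125, 6.85-fold).

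Gpr183, the receptor for dihydroxylated cholesterol that places T and B cells within lymphoid organs, was also higher. Its signals were 77.1 and 114 on the CXCR6 Hi arrays, 73.9 and 71.6 on the CXCR6 Lo arrays and 17.1 on the naive array, with a log2 difference of 2.27 (SE 0.33, adjusted p = 0.0207, 4.83-fold). The second probe set read 57.9 and 95.6, 48.9 and 62.2, and 29.8 on the same arrays. There again every LP array was above the naive array, although the log2 difference of 1.11 missed the threshold (adjusted p = 0.137, limma over all probe sets).

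The pair of cyclic AMP-raising prostaglandin E2 receptors gave unlike values. Ptger2, which encodes EP2, had signals of 33.9 and 35.3 on the CXCR6 Hi arrays, 30.5 and 20.2 on the CXCR6 Lo arrays and 5.90 on the naive array, a log2 difference of 2.31 (SE 0.34, adjusted p = 0.0209, 4.96-fold). Ptger4, which encodes EP4, had 142 and 158 on the CXCR6 Hi arrays, 133 and 134 on the CXCR6 Lo arrays and 120 on the naive array. Its log2 difference of 0.24 (SE 0.24, 95% interval -0.46 to 0.93) did not pass (adjusted p = 0.494), and the interval leaves out a change of the size seen for Ptger2. The sign for Ptger4 was not stable: the second probe set read 4.57 and 4.50, 4.42 and 2.20 on the LP arrays against 6.60 on the naive array (log2 difference -0.81, adjusted p = 0.287, limma over all probe sets), and quantile normalization turned the main value to -0.35. The difference between Ptger2 and Ptger4 was not itself tested.

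**Figure D2:**
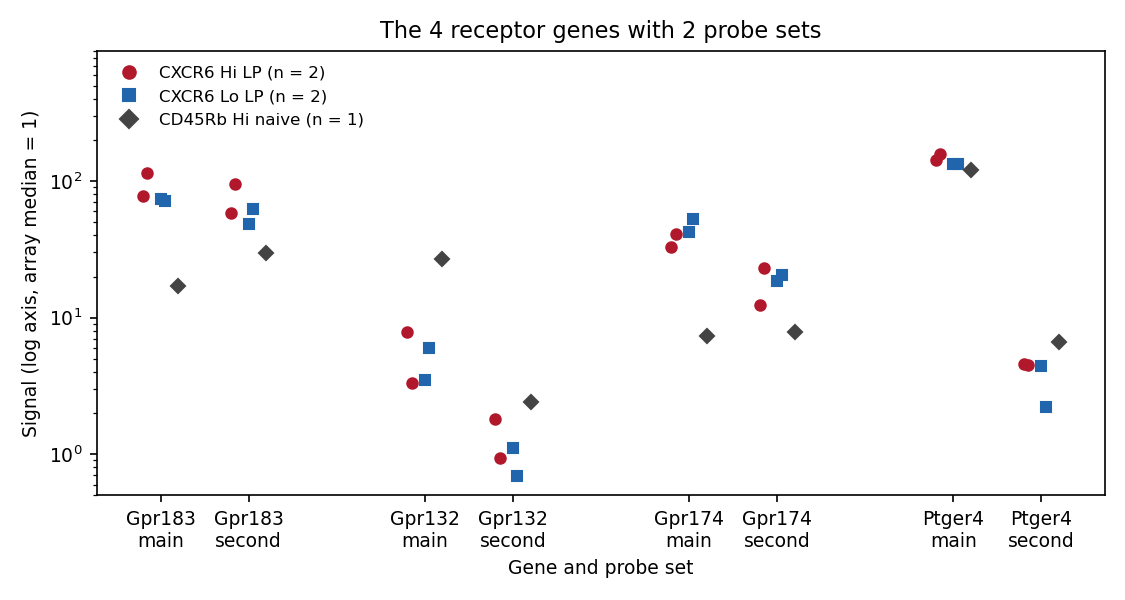
Signals (log axis, array median of 1) of the main and second probe sets of Gpr183, Gpr132, Gpr174 and Ptger4 on the 5 arrays, 1 point per array. For Gpr183, Gpr132 and Gpr174 both probe sets put the LP arrays on the same side of the naive array, whereas for Ptger4 the main probe set read 133 to 158 against 120 and the second 2.20 to 4.57 against 6.60.

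The proton-sensing family gave values in opposite directions, of which that of Gpr65 passed. Gpr65, an acid-sensing receptor that raises cyclic AMP, had signals of 36.6 and 31.8 on the CXCR6 Hi arrays, 28.0 and 28.4 on the CXCR6 Lo arrays and 12.5 on the naive array, a log2 difference of 1.31 (SE 0.25, adjusted p = 0.0316, 2.49-fold). Gpr132, a member of the same family that is better known for responses to lysophospholipids and oxidized fatty acids, was the 1 gene with lower signals on all 4 LP arrays. It had 7.81 and 3.34 on the CXCR6 Hi arrays, 3.50 and 5.99 on the CXCR6 Lo arrays and 26.9 on the naive array. The LP arrays of a subset differed from each other by 1.23 (CXCR6 Hi) and 0.77 (CXCR6 Lo) on the log2 scale, the widest spread of the 10 genes. Its log2 difference of -2.47 (SE 0.64, 95% interval -4.32 to -0.63) was large but did not pass (adjusted p = 0.0578), and it passed as lower with a filter on dim genes, with 1 added to each signal, or with a variance trend and robust fitting. The second probe set of Gpr132 was dim, at 0.695 to 1.81 in LP cells against 2.42 in naive cells (log2 difference -1.17, adjusted p = 0.192).

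Gpr171, a relative of the purinergic receptors that restrains T cell receptor signalling, had signals of 86.6 and 104 on the CXCR6 Hi arrays, 71.8 and 59.9 on the CXCR6 Lo arrays and 26.7 on the naive array. The log2 difference was 1.56 (SE 0.28, adjusted p = 0.0284 in limma, 2.96-fold), and the methods' t-test did not pass it after adjustment (adjusted p = 0.0771). Gpr15, which brings T cells to the large intestine, had low signals throughout, at 4.66 and 3.81, 4.68 and 3.02 on the LP arrays against 2.29 on the naive array. Although all 4 LP arrays were above the naive array, its log2 difference of 0.79 (SE 0.37, 95% interval -0.27 to 1.86) was within what the spread between arrays allows (adjusted p = 0.179).

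Read without a test, 9 of the 10 genes were above the naive array on all 4 LP arrays, as were 35.0% of all genes, and 1 was below it on all 4, as were 40.9% of all genes. On each of the 4 LP arrays, 7 of the 10 were at least 2-fold above the naive array, against 17.6% of all genes. The calls rest on few arrays. In limma, leaving out any 1 LP array, which leaves 1 array in its subset, took away most or all of these calls. The log2 differences themselves moved little, for example from 2.74 to 2.81 for Gpr18 and from 1.26 to 1.36 for Gpr65.

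The LP and naive arrays also differed in other ways, and tissue, transfer, inflammation, sex and array preparation cannot be told apart from the groups. The X-linked Xist RNA read 181 to 215 in LP cells and 0.864 in naive cells, and the Y-linked Eif2s3y 1.59 to 3.41 against 53.5, so that the X-linked P2ry10 and Gpr174 were compared between cells of unlike sex. The 3′ to 5′ ratio of the Gapdh control probe sets was 2.81 to 6.96 in LP cells against 1.51 in naive cells. Other control probe sets differed too. Dap read 64.6 to 102 on the LP arrays against 0.194 on the naive array, and Thr read 17.1 to 28.0 against 0.379. Lys and Phe went the same way, whereas BioB read 5.91 to 7.72 against 21.4. Among T cell markers, Cd4 had 22.9 to 39.2 against 56.0 and Cd3e 23.2 to 25.1 against 86.1, whereas Cd28 had 215 to 230 against 33.5, and the summed signal of the 8 T cell markers was 594 to 814 against 571. In such bulk samples fewer cells of a type and less RNA per cell cannot be told apart.

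Markers of other cells moved in both directions with the same comparison. The summed signal of 10 stromal markers was 104 to 166 in LP cells against 18.7 in naive cells (6 higher, 1 lower), and that of 10 myeloid markers 309 to 399 against 197 (4 higher, 1 lower). For 9 B cell markers the sum was 6.19 to 7.76 against 67.9 (1 higher, 6 lower), with Ms4a1 at 0.00600 to 0.197 in LP cells against 16.2. For 4 markers of NK and innate lymphoid cells it was 68.5 to 268 against 190 (0 higher, 1 lower), with Ncr1 at 0.100 to 0.685 against 24.9. For 8 granulocyte markers it was 17.3 to 30.8 against 191 (0 higher, 4 lower), and for 12 epithelial markers 47.7 to 97.6 against 106 (3 higher, 1 lower). Car1 alone gave 85.2 of this epithelial sum in naive cells, while 8 of the 12 epithelial markers, such as Krt8 at 9.36 to 29.6 against 0.387, were above the naive array on all 4 LP arrays (median log2 difference 1.95). Of 18 genes that respond to tissue dissociation, 11 passed as higher and 0 as lower, with sums of 1237 to 2053 against 681. The part of these cells, of dissociation, of sex, of RNA quality and of array preparation was not tested, for the receptors or for the other genes named here.

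Each LP subset was also set against the naive array on its own, which asks whether the receptors differ from naive T cells in both. Between the CXCR6 Hi and naive cells 7 of the 10 genes passed as higher, against 13.2% of all genes, and between the CXCR6 Lo and naive cells 5 passed, against 12.8% of all genes. The largest differences in CXCR6 Hi cells were those of Gpr18 (log2 difference 3.08, adjusted p = 0.0163), P2ry10 (2.67, 0.0199) and Ptger2 (2.55, 0.0247). In CXCR6 Lo cells they were those of Gpr174 (2.69, 0.0201), P2ry10 (2.60, 0.0198) and Gpr18 (2.47, 0.0181). Gpr171 and Gpr65 passed in CXCR6 Hi cells (1.83, 0.0300 and 1.45, 0.0357) and just missed in CXCR6 Lo cells (1.30, 0.0521 and 1.18, 0.0503). These comparisons share the naive array, so their likeness is no independent support for either. In limma, all calls of both comparisons were lost when any 1 of the 4 LP arrays was left out. With the methods' t-test after adjustment 0 of the 10 genes passed in either comparison, and that test unadjusted passed 3 in CXCR6 Hi and 4 in CXCR6 Lo cells.

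**Figure D3:**
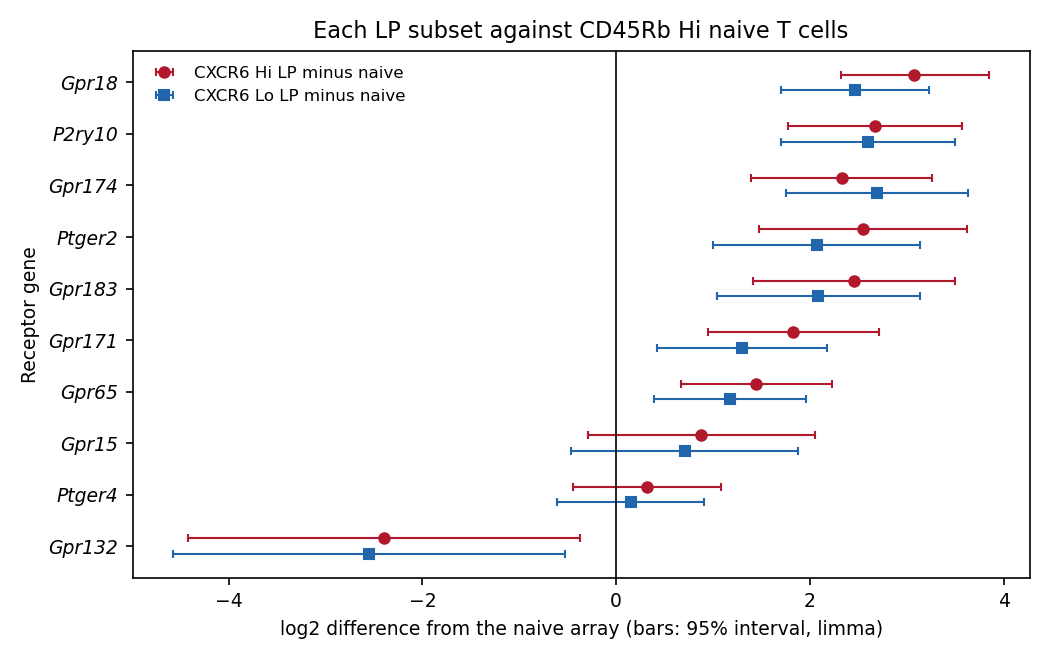
The log2 difference of each receptor gene between CXCR6 Hi LP cells (circles, n = 2 arrays) or CXCR6 Lo LP cells (squares, n = 2) and the naive array (n = 1), with bars for the 95% interval from limma. The intervals of both subsets lie above 0 for 7 genes, cross 0 for Gpr15 and Ptger4, and lie below 0 for Gpr132.

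The direct comparison of CXCR6 Hi with CXCR6 Lo LP T cells asked whether the receptors mark the subset that carries CXCR6. None of the 10 genes passed: 0 of 18193 genes had an adjusted p under 0.05 in limma (0% of all genes), with 1191 genes but 0 of the 10 receptors at an unadjusted p under 0.05. The methods' t-test, unadjusted, passed 1 of the 10, Gpr18, and 0 after Benjamini-Hochberg adjustment. Gpr18 had the largest difference, with signals of 180 and 199 against 121 and 125 (log2 difference 0.62, SE 0.22, 95% interval -0.0033 to 1.24, unadjusted p = 0.0507, adjusted p = 0.759). Gpr171 came next, at 86.6 and 104 against 71.8 and 59.9 (0.53, SE 0.25, interval -0.19 to 1.25, adjusted p = 0.784). Ptger2 had 33.9 and 35.3 against 30.5 and 20.2 (0.48, SE 0.30, interval -0.40 to 1.35, adjusted p = 0.806).

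On the main probe sets of 6 of the 10 genes both CXCR6 Hi arrays lay above both CXCR6 Lo arrays, against 25.1% of all genes. They were Gpr183, Gpr18, Gpr65, Gpr171, Ptger2 and Ptger4. Quantile normalization made the log2 difference of each smaller, at 0.36 for Gpr18, 0.26 for Gpr171, 0.25 for Ptger2, 0.11 for Gpr183, 0.05 for Gpr65 and -0.04 for Ptger4. The second probe set of Gpr183 overlapped between the subsets, at 57.9 and 95.6 against 48.9 and 62.2, while that of Ptger4 did not. Gpr174 was the 1 gene with both CXCR6 Hi arrays below, at 32.8 and 41.3 against 42.6 and 52.4, as 14.3% of all genes had. Its log2 difference was -0.36 (interval -1.13 to 0.40, adjusted p = 0.815 in limma), and -0.55 after quantile normalization. The second probe set of Gpr174 overlapped between the subsets, at 12.3 and 23.0 against 18.4 and 20.4. Gpr15, Gpr132 and P2ry10 overlapped between the subsets on their main probe sets. For P2ry10 the interval of -0.66 to 0.81 around 0.07 leaves room for a change of less than 2-fold either way, whereas for Gpr132 the interval of -1.50 to 1.81 leaves room for a larger one. A miss at this size does not show that the subsets are alike.

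**Figure D4:**
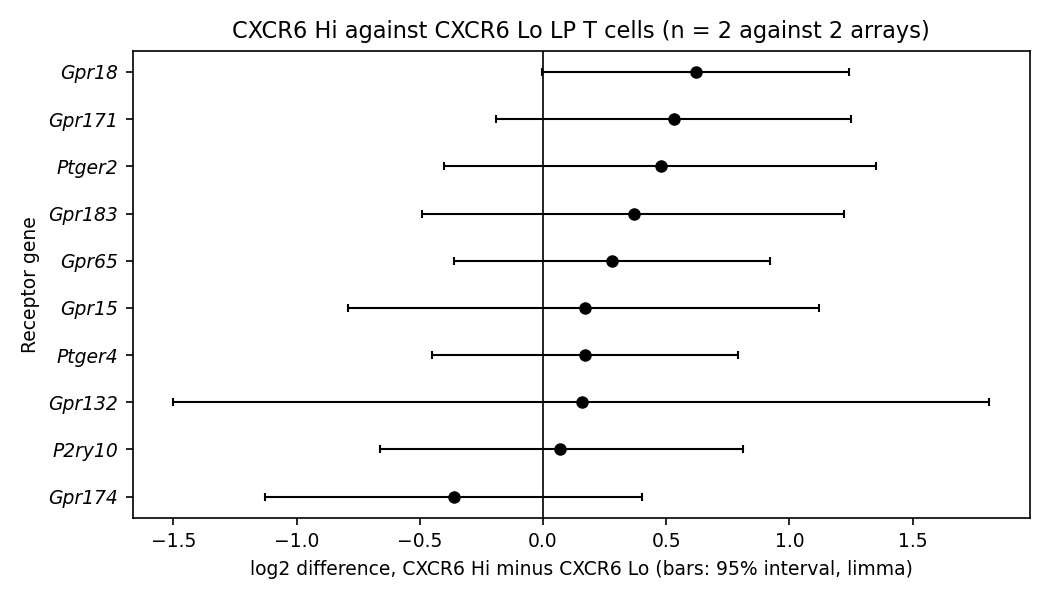
The log2 difference of each receptor gene between CXCR6 Hi and CXCR6 Lo LP T cells (n = 2 against 2 arrays), with bars for the 95% interval from limma. The points run from 0.62 for Gpr18 to -0.36 for Gpr174, and all 10 intervals include 0.

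Genes beside or around the receptors on the chromosome varied in direction. Over 33 such genes that are no members, up to the nearest pair on each side, the median log2 difference between LP and naive was -0.21. On their main probe sets 5 passed as higher and 4 as lower, against 15.1% and 18.8% of all genes. For Cldnd1 and Tm9sf2 the main probe set passed as higher (log2 difference 1.95 and 1.30). Another probe set of each passed as lower (-3.27 and -3.95, adjusted p = 0.0184 and 0.0165, limma over all probe sets). Both Gpr18 and Gpr183 lie within the span of Ubac2, a gene on the opposite strand whose main probe set read 3.42 to 8.77 in LP cells against 58.0 in naive cells (log2 difference -3.41, adjusted p = 0.0145), while its second probe set read 11.2 to 19.2 against 11.5. P2ry10b, which lies between P2ry10 and Gpr174 on the X chromosome and resembles P2ry10 by name, read 2.06 to 3.66 in LP cells against 3.83 in naive cells (log2 difference -0.53, adjusted p = 0.225). P2ry14, a receptor for a nucleotide sugar next to Gpr171, read 4.66 to 5.0 against 1.40 and passed as higher (1.78, adjusted p = 0.0184).

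Likeness of pattern was measured as the root mean square difference of mean-centred log2 signals over the 5 arrays, against 10897 genes with a mean signal of at least 1. Among the members, Gpr65 and Gpr171 were the closest pair (0.230), followed by Gpr183 and P2ry10 (0.238) and Gpr183 and Ptger2 (0.242). Of all other genes, Cblb, a ubiquitin ligase that restrains T cell activation, was the closest to P2ry10 (0.0517), and Hlf, Pmaip1 and Trat1 were the closest to Ptger2 (0.0448, 0.0514 and 0.0565). Bst1 was the closest to Gpr183 (0.0735), Rab39b to Gpr18 (0.0706) and Zfp949 to Gpr171 (0.0270). Aqp8 was the closest to Gpr174 (0.0685), Sf3b4 to Gpr65 (0.0520), Ccm2l to Gpr15 (0.0740) and Ncapd3 to Ptger4 (0.0281). Gpr132 had no close match, its nearest gene being Khsrp at 0.156. With 5 arrays, 4 of them from LP, such a match mostly restates the contrast with the naive array.

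The enzymes that make and remove the receptors' ligands were read from the same arrays. The summed signals of the stromal, myeloid and dissociation genes were also higher on the LP arrays. Any part of such cells or of dissociation in the enzyme values was not tested. Ptgs2, the inducible cyclooxygenase of prostaglandin synthesis, read 66.1 to 103 in LP cells against 2.06 in naive cells (log2 difference 5.36, adjusted p = 0.0119). Its other probe set was dim, at 2.54 to 3.23 in LP cells and 0.0130 in naive cells, so no fold is given for it. Of 11 genes of prostaglandin synthesis and transport, Ptgs2 passed as higher and the transporter Slco2a1 as lower (1.20 to 1.35 against 2.62, log2 difference -1.06, adjusted p = 0.0457), with a median of -0.84. The other probe sets of Slco2a1, with signals under 1, did not pass (log2 differences 0.04, 0.11 and -0.39). Of the 7 other prostanoid receptors 0 passed as higher and 1 as lower, Ptgdr2 (adjusted p = 0.0430), whose signals were dim throughout, at 0.0660 to 0.155 on the LP arrays against 0.528. Of 7 genes of oxysterol synthesis and sensing 4 passed as higher and 0 as lower, with a median of 1.23. Most of these calls rest on signals near or below the array median of 1, which give a direction but no exact fold. Cyp7b1 read 0.751 to 1.19 against 0.383 and Cyp46a1 0.585 to 1.10 against 0.204. The others that passed were Ch25h, which makes the precursor of the Gpr183 ligand, at 1.54 to 3.34 against 0.461 (2.52, adjusted p = 0.0351), and Hsd3b7, which removes that ligand, at 3.88 to 6.54 against 1.66 (1.64, adjusted p = 0.0399).

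The other receptors for related lipids and for protons varied gene by gene. Of 12 other lysophospholipid receptors 1 passed as higher (Lpar1, at 1.75 to 4.70 against 0.349, adjusted p = 0.0323) and 2 as lower, S1pr5 at 0.0260 to 0.300 against 11.4 (adjusted p = 0.0325) and Lpar2 at 0.137 to 0.318 against 2.25 (adjusted p = 0.0205), with a median log2 difference of -0.08 over the list. No detection call was used here, so that signals below the array median of 1, as in 1 group of each of these genes, give a direction but no exact fold. Ncr1, the 1 of 4 NK and innate lymphoid markers that passed, was also lower in LP cells (0.100 to 0.685 against 24.9). Any part of such cells in the S1pr5 value was not tested. Of 10 genes that make, remove or carry lysophospholipids 1 was higher and 3 lower (median -0.63). Of 8 leukotriene receptors and enzymes 3 passed as higher and 0 as lower (median 1.62), among them Ltb4r1, a leukotriene B4 receptor that draws effector T cells, at 8.90 and 9.47 on the CXCR6 Hi arrays, 2.60 and 1.34 on the CXCR6 Lo arrays and 0.247 on the naive array (4.07, adjusted p = 0.0153). Of 11 receptors for fatty acids and related ligands 4 were higher and 0 lower (median 0.57), and of 12 receptors related to the P2Y family 2 were higher and 2 lower (median 0.39). Gpr4, the other proton sensor measured, was near the bottom of the scale, at 0.110 to 1.01 against 0.138 (adjusted p = 0.651).

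Downstream of the receptors, the genes that break down cyclic AMP and those that make it or carry its signal varied gene by gene and, for several, by probe set. Of 11 phosphodiesterases 4 passed as higher and 3 as lower (median 0.69), with Pde4d at 65.9 to 74.8 against 9.75 (2.85, adjusted p = 0.0121) and Pde3b at 107 to 146 against 26.3 (2.25, 0.0148). Of 16 adenylyl cyclases, protein kinase A subunits and anchors 0 passed as higher and 5 as lower (median -0.25), with Prkar2b, a regulatory subunit, at 0.509 to 1.48 against 34.1 (-5.11, 0.0146). These counts rest on the main probe sets. Other probe sets passed in both directions in limma over all probe sets. Some of Prkar1a, a regulatory subunit, and of Akap13, an anchor, passed as higher. Examples read 82.9 to 126 against 11.3 (Prkar1a, 3.20, adjusted p = 0.0166) and 31.6 to 58.2 against 6.59 (Akap13, 2.80, 0.0191). Among those that passed as lower were probe sets of Prkaca, a catalytic subunit, and of Adcy9, a cyclase. They read 1.74 to 3.18 against 34.9 (Prkaca, -3.75, 0.0176) and 0.0620 to 0.484 against 1.32 (Adcy9, -3.06, 0.0270). For Adcy7, a cyclase of immune cells, the main probe set read 112 to 160 against 123 (0.04, adjusted p = 0.931), whereas another read 3.07 to 4.49 against 34.9 (-3.23, 0.0169). Of 10 genes of the CREB family and its coactivators 2 were higher and 4 lower (median -0.72), and the higher ones included Crem, a cyclic AMP-responsive factor, at 184 to 239 against 2.96 (6.15, adjusted p = 0.0119). A second Crem probe set differed in the same direction by 4.89, while a further pair of dim ones did not pass.

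**Figure D5:**
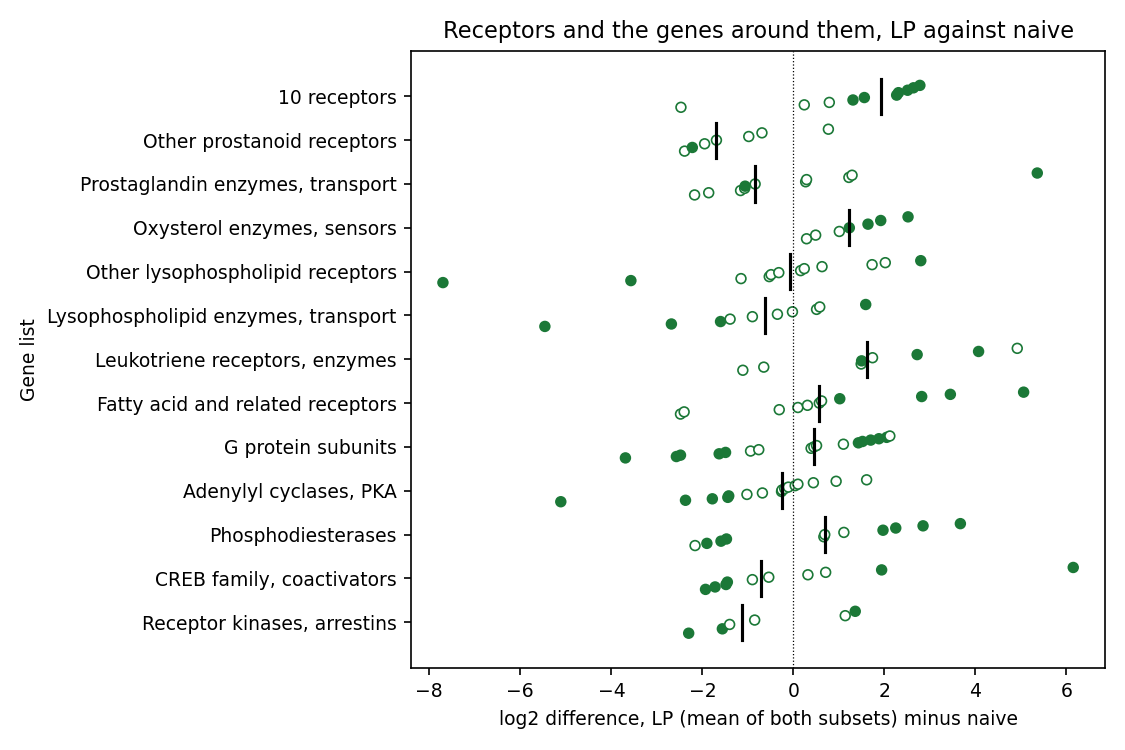
The log2 difference between LP T cells (mean of both subsets, n = 4 arrays) and the naive array (n = 1) for the 10 receptor genes and for lists of related genes, 1 point per gene. Filled points passed at an adjusted p under 0.05 in limma, open points did not, and each vertical bar is the median of its list, which is 1.92 for the 10 receptors.

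Coupling proteins varied within each list. Of 17 G protein subunits 5 passed as higher and 5 as lower (median 0.45). The inhibitory Gnai3 read 116 to 151 against 39.5 (1.70, adjusted p = 0.0251). Gng2 read 3.66 to 7.16 against 65.5 on its main probe set (-3.69, 0.0120) but 8.54 to 22.4 against 14.7 on another. Gnas, the stimulatory subunit used by Ptger2, Ptger4, Gpr65 and Gpr174, read 67.9 to 108 against 60.8 on its main probe set (0.39, 0.349). Some of its dimmer probe sets passed as higher in limma over all probe sets and others did not pass. Those that passed read 1.56 to 5.56 against 0.694 (2.14, 0.0360) and 0.0630 to 0.390 against 0.0220 (2.93, 0.0181). Of 6 receptor kinases and arrestins 1 was higher (Grk6, 1.36, 0.0327, though another of its probe sets read 21.3 to 33.1 against 32.0) and 2 were lower, among them Arrb1 (-2.30, 0.0186).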

How the data were processed

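RNA of LP T cells (CXCR6 Hi, n = 2 arrays, and CXCR6 Lo, n = 2) and of CD45Rb Hi naive T cells (n = 1) was measured on Affymetrix Mouse430_2 arrays. As deposited, the intensity values are linear, not log2, and the authors had set the median of every array to 1. The methods name GeneSpring for this step and the submitters' notes name RMA, with no word on background correction or filters. Of 45101 probe sets, 34945 carry 1 gene symbol, 932 several and 9211 none, and 64 are controls. By Entrez ID 34741 matched RefSeq. The brightest probe set by its mean over the 5 arrays was taken for each of 18193 genes, and every probe set of the 10 receptors is reported. The log2 of the signal was tested without a filter, after zeros were replaced by 0.001.

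Tests were two-sided and used limma (version 3.58.1, R 4.3.3), with p-values adjusted over all genes after Benjamini and Hochberg and called under 0.05. Residual degrees of freedom were 2 and prior ones 1.678. Since the naive array has no replicate, its spread was taken to be that of the LP arrays. The number of arrays limits the precision. The receptors and the gene lists were chosen with earlier results of these data known, so the lists are described by counts and medians, with no test. All 10 receptors are named, and of each list some of the up to 4 genes with the largest differences that passed and some that did not. Adcy7, Gnai3, Gnas, Prkar1a, Akap13, Prkaca, Adcy9, the neighbours Cldnd1 and Tm9sf2, and the markers were named after their values were seen. Promoters came from RefSeq. The alternatives were other choices of probe set, normalization, filter, floor and variance model, a block for the replicate number, fits without each LP array in turn, a fit over every probe set, a 2-fold rule without a test, and the methods' own test. Plots were drawn with matplotlib 3.10.9 in Python 3.11.15.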

Additional observations from a re-analysis of the deposited data

How the results depend on the processing

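Between LP and naive T cells, 7 of the 10 receptor genes passed, and 0 to 2 passed when 1 LP array was left out. Between CXCR6 Hi and naive cells 7 passed, and 0 with the replicate block, with any 1 LP array left out (0 to 0) or with the methods' t-test after adjustment, and 3 with that test unadjusted. Between CXCR6 Lo and naive cells 5 passed, 0 with the same 3 settings, and 8 with the filter at the 40th percentile, with 1 added to each signal, with a variance trend and robust fitting, or by a fold of at least 2 on each array. Between the subsets 0 passed, and 1 (Gpr18) with the methods' t-test unadjusted. With the replicate block 5 of the 10 genes passed between LP and naive (Gpr171 and Gpr65 did not) and 0 between the subsets. The methods' t-test after adjustment passed 6 between LP and naive, without Gpr171. The labels share only replicate numbers, of 2 pairs, whose deviations correlate at 0.192 over 10907 genes, and whether they pair the samples is not given. The block and each array left out leave 1 residual degree of freedom in place of 2.

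The sign of Ptger4 against naive turned with the mean of its probe sets (-0.29 in LP, -0.11 in CXCR6 Hi and -0.46 in CXCR6 Lo cells), with quantile normalization (-0.35, -0.37 and -0.33) and on its second probe set (-0.81, -0.54 and -1.08). The cause was not tested. Between the subsets, quantile normalization gave -0.04 for Ptger4 and -0.09 for P2ry10, and leaving out 1 array moved Gpr15 from -0.15 to 0.48, Gpr132 from -0.46 to 0.77 and P2ry10 from -0.08 to 0.23. The median log2 difference of all genes between LP and naive was -0.136, -0.00395 after quantile normalization, 0.414 after centring on gene medians and -0.424 in the filtered set. The 7 genes kept their sign and passed under both rescalings. Dim probe sets, such as those of Gpr15 and the second of Gpr132, limit what can be read.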

Other observations

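Gpr34, another receptor for lysophosphatidylserine, had signals of 7.15 and 9.60 on the CXCR6 Hi arrays, 1.60 and 1.55 on the CXCR6 Lo arrays and 8.02 on the naive array, a log2 difference of 2.40 between the subsets that did not pass in limma (unadjusted p = 0.00117, adjusted p = 0.463). Of the leukotriene receptors, Ltb4r1 differed between the subsets by 2.30 (unadjusted p = 0.00640, adjusted p = 0.564) and Cysltr2 by 0.96 (unadjusted p = 0.0198, adjusted p = 0.669), with Cysltr2 at 19.5 and 24.2 on the CXCR6 Hi arrays, 11.6 and 10.8 on the CXCR6 Lo arrays and 2.37 on the naive array. For all 3 of these genes the CXCR6 Hi arrays were above the CXCR6 Lo arrays, and the genes were picked after their values were seen.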
